A study of Mus musculus with 87 samples.

Results

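To describe how the embryonic face and forebrain differ in gene expression at embryonic day 11.5, RNA-seq of 8 wild-type faces was set against RNA-seq of 4 forebrains, which makes 12 of the 64 RNA-seq samples of the series. All embryos were of the FVB strain and came from mouse lines in which a boundary between topologically associating domains (TADs, stretches of chromatin that contact themselves more than their surroundings) had been removed with CRISPR/Cas9. The faces were the wildType embryos of lines B3, B5, B6 and B7, 2 from each, and carried no deletion. The forebrains were all those of line B8, 2 homozygous for its deletion on chromosome 19 (25626333 to 25637707, mm10) and 2 wildType. Every face therefore came from another line than every forebrain, so that line and tissue cannot be told apart in any difference given here. The labels name no sex and no separate litters, and p-values measure the spread between these samples only.

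The face at this stage is built from the frontonasal, maxillary and mandibular prominences, in which mesenchyme derived largely from the neural crest lies under a sheet of surface ectoderm. Placodes, developing muscle, cranial nerves and, depending on the cut, the eye lie beside it. The forebrain is a neuroepithelium of dividing progenitors with the first neurons at its outer side. Its dorsal part, the pallium, makes glutamatergic neurons of the cortex, its ventral part, the subpallium, makes GABAergic neurons, and the cortical hem at the dorsal midline secretes Wnt and BMP signals.

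The libraries held 17075533 to 26483003 expected counts in the faces and 21319920 to 23237748 in the forebrains. The first principal component of the 12 libraries took 70.8% of the variance and placed the faces at -51.8 to -31.6 and the forebrains at 76.9 to 85.6. Spearman correlations over the 15495 genes tested were 0.9872 to 0.9953 between faces, 0.9847 to 0.9945 between forebrains and 0.9325 to 0.9611 between a face and a forebrain. Mitochondrial genes took 1.01 to 1.62% of the counts in faces and 0.688 to 0.921% in forebrains. The Y-linked gene Ddx3y was above 1 CPM in 2 faces and in 1 forebrain, so that each tissue held libraries with and without it at this level. The sex of the embryos was not tested further. The RNA came from whole tissue, in which fewer cells of a type and less RNA per cell cannot be told apart.

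Of the 15495 genes, 4086 (26.4%) were higher in face and 4263 (27.5%) higher in forebrain at an adjusted p under 0.05 (edgeR's quasi-likelihood test). Counts of called members of a gene list are to be read against these shares. Differences of at least 2-fold were less even. In all, 1679 genes (10.8%) were at least 2-fold higher in face and 926 (5.98%) at least 2-fold higher in forebrain. For 5290 genes (34.1%), the 8 faces and the 4 forebrains did not overlap. Levels are given as CPM, which are expected counts scaled to the TMM-adjusted size of the library, and fold changes as log2 of face over forebrain, so that a positive value means higher in face.

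**Figure D1:**
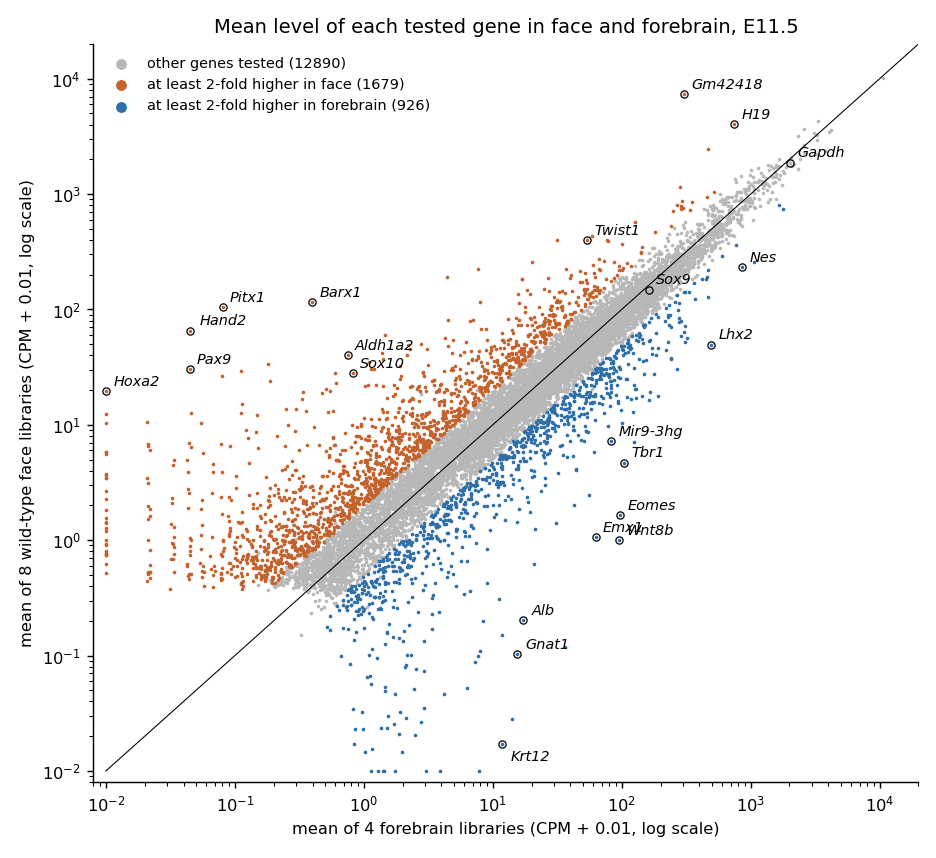
Mean level of the 15495 genes tested in the 4 forebrain libraries (horizontal axis) and in the 8 wild-type face libraries (vertical axis), both in CPM with 0.01 added and on log scales. Each point is a gene, coloured where it passed an adjusted p under 0.05 and a 2-fold difference (1679 in face, 926 in forebrain), and the line marks equal levels.

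The sequences that follow are those of some of the microRNAs whose precursors lie, on the same strand, inside non-coding genes at least 2-fold apart between the tissues. They are shown because 3 separate host genes of the same microRNA were all higher in forebrain. The sequences are RefSeq's mature forms on GRCm38.p6, 5′ to 3′, with the seed (bases 2 to 8, which pair with target RNAs) in capitals. The RNA-seq measured the long host transcripts and not the mature microRNAs.
miR-9-5p: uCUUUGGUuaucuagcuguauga
miR-9-3p: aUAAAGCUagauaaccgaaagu
miR-129-5p: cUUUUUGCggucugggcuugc
miR-199a-3p: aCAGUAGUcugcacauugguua
miR-214-3p: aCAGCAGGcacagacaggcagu
miR-200b-3p: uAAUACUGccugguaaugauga
miR-429-3p: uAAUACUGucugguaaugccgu
miR-200a-3p: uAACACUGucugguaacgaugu

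miR-9 is encoded at 3 places in the mouse genome and is a brain microRNA that acts on neural progenitors. Its host Mir9-3hg on chromosome 7 was at 1.89 to 10.5 CPM in the faces (median 7.45). In the forebrains it stood at 65 and 86.6 CPM (homozygous) and at 85.2 and 93.7 CPM (wild-type). The host C130071C03Rik on chromosome 13 went from 12.8 ± 4.2 CPM (SD, n = 8) in face to 123 ± 25.3 CPM (SD, n = 4) in forebrain. The host Gm3764 on chromosome 3 went from 3.78 ± 1.32 to 32.1 ± 4.85 CPM (SD, n = 8 and 4). None of the 3 overlapped between the tissues, and their log2 fold changes were -3.51 (adjusted p = 4.53e-08), -3.27 (1.3e-08) and -3.09 (2.1e-08) by edgeR. Mir670hg, which holds miR-129-2 and miR-670, was lower in face as well (log2 fold change -2.59, adjusted p = 3.31e-07).

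Dnm3os on chromosome 1, an antisense transcript that holds miR-199a and miR-214 and is known from skeletal development, was the other way round. It was at 5.64 to 18.5 CPM in the faces and at 2.28, 1.19, 0.496 and 2.06 CPM in the forebrains, with a log2 fold change of 2.91 (SE 0.42, adjusted p = 2.95e-05). Gm13648 on chromosome 4, the host of miR-200a, miR-200b and miR-429 (microRNAs of epithelia), was read at no more than 0.864 CPM in any face. It was at 0 in 3 of the 4 forebrains and overlapped between the tissues (log2 fold change 3.68, adjusted p = 0.000952). The mature miR-200b-3p and miR-429-3p share a seed. Other hosts at least 2-fold apart, whose microRNAs are not shown, were H19 and 3110039I08Rik, higher in face, and D030055H07Rik and Gm4675, higher in forebrain. 3110039I08Rik, which holds precursors of miR-100, let-7a and miR-125b, was at 38.3 CPM in face and 15.5 CPM in forebrain on average.

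Genes that pattern the facial prominences lay almost wholly on the side of the face. Of 36 on the list, 35 were higher in face, all of them at least 2-fold, and none was higher in forebrain. The median log2 fold change was 2.50, against 0.00 over all genes tested. The exception was Msx2, a homeobox gene of the distal prominences and of the dorsal midline of the brain, at 29.5 ± 1.89 CPM in face and 25.6 ± 6.78 CPM in forebrain (SD, n = 8 and 4, adjusted p = 0.17). It was called higher in face without the first homozygous forebrain (log2 fold change 0.39, adjusted p = 0.0036), with wild-type forebrains only (0.41, adjusted p = 0.00872) and with homozygous faces (0.49, adjusted p = 0.0193).

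Within this list the mandibular genes lay furthest from the forebrain. All 9 were higher in face, with a median log2 fold change of 8.08. Hand2, which specifies the distal lower jaw downstream of endothelin, was at 49.6 to 74.9 CPM in the faces (median 67.6). In the forebrains it was at 0.0476, 0.0478, 0.0451 and 0 CPM, or 3 counts in all 4 libraries. The ratio of the pooled levels was 1870 with a 95% counting interval of 641 to 9080. Pitx1, a homeobox gene of the lower jaw and the hindlimb, was at 85.6 to 136 CPM against at most 0.143 CPM, and Barx1, which marks the molar field and the proximal jaw, at 77.9 to 150 CPM against at most 0.857 CPM. Gsc, a homeobox gene of the jaw and ear mesenchyme, was at 23.6 to 45.5 CPM against at most 0.225 CPM. Foxf1, a forkhead factor of mesenchyme, was at 21.6 to 36.2 CPM against at most 0.172 CPM.

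The 10 genes of the list that mark mesenchyme of all prominences were also all higher in face, but by less (median log2 fold change 2.41). Twist1, which keeps neural crest cells in a mesenchymal state, was at 400 ± 18 CPM in face and at 68.3, 59.2, 40.9 and 48.4 CPM in the forebrains. Prrx1 went from 78.1 ± 6.18 CPM in forebrain to 393 ± 30.5 CPM in face (SD, n = 4 and 8, log2 fold change 2.33, adjusted p = 1.58e-11). Both were thus well above 0 in all 4 forebrains. All 7 frontonasal genes were higher in face, and the median of their log2 fold changes was 1.92. Alx1, needed for the midface, was at 92.1 ± 6.9 CPM in face and 24.2 ± 3.73 CPM in forebrain (log2 fold change 1.93). Msx1, a homeobox gene of the distal prominences, was at 175 to 227 CPM in the faces and at 137, 79.4, 69.5 and 80.9 CPM in the forebrains, where the first homozygous library was the highest. Of the maxillary and palate genes, 9 of 10 were higher in face. Osr1 was at 48.7 ± 7.51 CPM in face and 2.2 ± 0.785 CPM in forebrain.

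Among the 15 genes with the largest difference in the direction of the face, Hoxa2, Ppp1r1c and Foxe1 had no count in any forebrain. Hoxa2, which gives the second pharyngeal arch its identity, was at 15.1 to 24.9 CPM in the faces (median 19.1). Against a floor of 3 counts over the 4 forebrains, this is at least 567-fold higher. For Ppp1r1c, an inhibitor of protein phosphatase, the bound was at least 358-fold, and for Foxe1, a factor of the thyroid and palate, at least 301-fold. Hoxb3 was at 3.6 to 15.8 CPM in the faces and at no more than 0.129 CPM in any forebrain. Oc90, which codes for the main protein of the inner ear's otoconia, was at 6.03 to 18.4 CPM in every face and had 1 count in the 4 forebrains. Matn4, a matrix protein, varied from 7.85 to 29.4 CPM between faces.

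Matrix and mesenchyme genes as a wider list were less strongly biased. Of 36, 31 were higher in face, 24 at least 2-fold and none higher in forebrain (median log2 fold change 1.33). Pdgfra, the receptor for platelet-derived growth factor on mesenchyme, was at 243 ± 38.6 CPM in face and 59.8 ± 15.4 CPM in forebrain (log2 fold change 2.02, adjusted p = 5.57e-08). Vcan, a proteoglycan of loose mesenchyme, rose alike (1.86, adjusted p = 1.34e-07). Fn1, or fibronectin, was at 185 to 406 CPM in the faces and at 164, 117, 134 and 146 CPM in the forebrains. Col1a2, a chain of collagen I, was at 859 ± 138 CPM in face and 353 ± 65.3 CPM in forebrain, and Cdh11, the cadherin of mesenchyme, at 347 ± 32.3 and 144 ± 34 CPM. Col3a1, a collagen of soft connective tissue, overlapped between the tissues, with 709 to 1045 CPM in the faces and 804, 430, 722 and 535 CPM in the forebrains. Its log2 fold change of 0.45 (adjusted p = 0.0155) was not called with the homozygous faces in place of the wild-type ones (0.24, adjusted p = 0.197), without the second homozygous forebrain (0.31, adjusted p = 0.0549) or without the second wild-type forebrain (0.38, adjusted p = 0.0618). The summed level of the list was 5035 to 7891 CPM in the faces and 4286, 2706, 3952 and 3152 CPM in the forebrains. How much of it came from mesenchyme left on the forebrain was not tested.

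Skeletal genes were split. Of 16 on the list, 14 were tested, of which 10 were higher in face and 3 higher in forebrain. Runx2, the master regulator of bone, was at 10.6 to 22 CPM in the faces and at 0.666, 1.29, 2.39 and 2.28 CPM in the forebrains (log2 fold change 3.40, adjusted p = 1.04e-07). Col9a1, a cartilage collagen, was at 147 ± 31.1 CPM in face and 18.4 ± 10.4 CPM in forebrain. Col2a1, the main collagen of cartilage, overlapped, at 367 to 705 CPM in the faces and at 408, 282, 228 and 264 CPM in the forebrains (log2 fold change 0.87, adjusted p = 0.000454). It was not called with homozygous faces (0.45, adjusted p = 0.0781) or with the B5 faces only (0.50, adjusted p = 0.11). The 3 that were higher in forebrain were Sox5, Sox6 and Hapln1. Sox5 and Sox6 are partners of Sox9 in cartilage that neural progenitors also use, and Hapln1 links hyaluronan to proteoglycans. Sox6 was at 14.4 to 25.6 CPM in the faces and at 78.1, 56.9, 79.1 and 91 CPM in the forebrains (log2 fold change -2.03, adjusted p = 1.08e-08). Sox9 itself did not pass the test, with 148 ± 20.3 CPM in face and 162 ± 10.6 CPM in forebrain (log2 fold change -0.13, adjusted p = 0.28). With homozygous faces it was called higher in forebrain (-0.26, adjusted p = 0.0405).

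Of 19 muscle genes of the head, 17 were tested, 16 were higher in face and none was higher in forebrain (median log2 fold change 3.55). Myog, which drives muscle differentiation, was at 11.8 to 42.5 CPM in the faces (median 24.9) and at 0.143, 0, 0.0902 and 0.043 CPM in the forebrains. Myod1, which commits cells to muscle, had 3 counts in the 4 forebrains, all in the first homozygous library, and 7.2 to 19.8 CPM in the faces. Its pooled ratio was 375, with a counting interval of 128 to 1820. Actc1, an actin of early muscle, was at 21.3 to 88.5 CPM in the faces and at 0.619, 3.01, 3.7 and 3.65 CPM in the forebrains. The list varied between faces, with a summed level of 123 to 358 CPM, but stayed apart from the forebrains at 14.8 to 25.9 CPM.

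All 23 genes of the surface and oral epithelium were higher in face and all by at least 2-fold (median log2 fold change 2.20). Krt14, a keratin of the basal epidermis, was at 12.5 to 34.2 CPM in the faces and at 0.809, 1.39, 1.44 and 1.33 CPM in the forebrains. Krt5, its partner keratin, was at 28.2 to 82.1 CPM in the faces and at 8.9, 14.4, 10.2 and 14.1 CPM in the forebrains (log2 fold change 2.20, adjusted p = 1.23e-05). Epcam, a surface protein of all simple epithelia, was at 9.76 ± 2.24 CPM in forebrain and 47.3 ± 5.73 CPM in face. Trp63, which holds the surface ectoderm in its stratifying fate, was at 24.6 to 45.4 CPM in the faces and at 6.52, 5.97, 2.07 and 5.89 CPM in the forebrains, so that the forebrain libraries were not at 0 for it.

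Derivatives of the neural crest and the cranial ganglia had a median log2 fold change of 4.00, with 15 of 16 genes higher in face and 1 higher in forebrain. Sox10, the factor of neural crest glia, was at 23.4 to 36 CPM in the faces and at 0.476, 1.24, 0.902 and 0.645 CPM in the forebrains (log2 fold change 5.10, adjusted p = 5.85e-11). Prph, the intermediate filament of peripheral neurons, was at 15.1 to 31.6 CPM against at most 0.334 CPM. Erbb3, the neuregulin receptor of glial precursors, was at 33.6 to 63.4 CPM against at most 2.96 CPM, and Foxd3, a factor of early neural crest, at 6.17 to 9.07 CPM against at most 0.287 CPM. Isl1, a factor of sensory and motor neurons that the ventral forebrain uses too, was closer, at 37.3 ± 5.15 CPM in face and 14.8 ± 6.76 CPM in forebrain. The gene that went the other way was Neurog1, a proneural factor of both the cranial ganglia and the pallium. It was at 10.9 ± 1.73 CPM in face and 26.8 ± 1.4 CPM in forebrain (log2 fold change -1.29, adjusted p = 1.63e-07).

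Eye genes of the embryo went with the face. Of 9 on the list of retina and pigment epithelium, 8 were higher in face and none in forebrain. Rax, a factor of the eye field, was at 9.84 ± 2.15 CPM in face and 0.948 ± 0.712 CPM in forebrain, and Six6, a factor of the retina and the ventral hypothalamus, at 8.82 ± 1.48 and 0.281 ± 0.197 CPM. Pmel, a melanosome protein, was at 14.9 to 28 CPM against at most 3.05 CPM.

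Genes of the nose placode went with the face, and those of the lens were mixed. Of 14 genes, 13 were tested and 9 were higher in face. All 5 olfactory genes tested were among them, but 4 of the 8 lens genes (Cryab, Cryba1, Prox1 and Mip) did not pass the test. Crybb2, a lens gene outside this list, was at 14.8, 15.9, 8.16 and 17.2 CPM in the forebrains and at most 0.098 CPM in the faces. Whether its source raised other lens genes in forebrain was not tested. Cryaa, a crystallin of lens fibres, overlapped between the tissues, at 15.9 to 88.1 CPM in the faces and at 15.2, 16.8, 8.66 and 15.9 CPM in the forebrains (log2 fold change 1.55, adjusted p = 0.00244). With the B3 faces only it was at 0.62 and was not called (adjusted p = 0.139). Of 5 pituitary genes, Lhx3 and Pomc were tested and both were higher in face.

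The pallial genes were the reverse of the facial list. All 18 were higher in forebrain, 17 at least 2-fold (median log2 fold change -3.30). The other was Nr2f1, a nuclear receptor of the caudal cortex that neural crest cells use as well, at 223 ± 17.9 CPM in face and 306 ± 26.8 CPM in forebrain. Emx1, a homeobox gene of the dorsal telencephalon, was at 0.511 to 1.41 CPM in the faces (median 1.1) and at 55.6, 66.9, 49.3 and 79.6 CPM in the forebrains (log2 fold change -5.90, SE 0.17, adjusted p = 2.05e-12). Eomes, the factor of intermediate progenitors, was at 0.393 to 4.03 CPM against 83.6, 83.8, 110 and 113 CPM (-5.85, adjusted p = 1.24e-09). Tbr1, the factor of early cortical neurons, was at 56.5 CPM in the first homozygous forebrain and at 103, 127 and 132 CPM in the others. In the faces it went from 0.275 to 9.62 CPM. Neurog2, the proneural factor of the pallium, was at 4.44 to 10.3 CPM in the faces and at 91.6, 117, 136 and 156 CPM in the forebrains. Lhx9 and Dmrta1, factors of the medial and dorsal pallium, were higher in forebrain with log2 fold changes of -4.44 and -4.49.

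Lhx2, a selector of cortical identity, and Nr2e1, a nuclear receptor of neural stem cells, were less far apart. Nr2e1 was at 7.9 to 29 CPM in the faces and at 182, 134, 180 and 170 CPM in the forebrains (log2 fold change -3.11, adjusted p = 2.32e-08). Lhx2 was at 26.6 to 69.9 CPM in the faces and 492 ± 39.6 CPM in forebrain (-3.31, adjusted p = 7.36e-10).

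The posterior forebrain was mixed. Of 20 genes of the diencephalon and hypothalamus, 7 were higher in face and 7 in forebrain (median log2 fold change 0.08). The shares over all genes tested were 26.4% and 27.5%. Otx2, a factor of the anterior brain, was at 4.99 to 16 CPM in the faces and 51.3 ± 1.99 CPM in forebrain, while Irx3, a factor of the thalamus that facial mesenchyme also uses, was at 81.9 ± 4.41 CPM in face and 19.9 ± 4.98 CPM in forebrain. Barhl2 and Olig3, factors of the thalamus and the region around it, were among the 15 genes with the largest difference toward the forebrain. Barhl2 was at 0.206 to 1.31 CPM in the faces and at 14.2, 19.8, 19.3 and 30.7 CPM in the forebrains, and Olig3 at 0.049 to 1.24 CPM and at 7.66, 9.7, 11.6 and 15.9 CPM. Of 10 midbrain and hindbrain genes, 7 were tested, 5 were higher in face and none higher in forebrain. Among them were Pax2, Gata2 and Gata3, which other cells of the head use too.

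Genes of the cortical hem and choroid plexus were higher in forebrain in 7 of 8 cases, all 7 at least 2-fold (median log2 fold change -2.30). Wnt8b, a hem ligand, was at 0.354 to 2.5 CPM in the faces and at 116, 70.8, 75.4 and 120 CPM in the forebrains. The log2 fold change was -6.64 (SE 0.29, adjusted p = 1.24e-10). Rspo1, Rspo2 and Rspo3, secreted proteins that strengthen Wnt signals, were higher in forebrain with log2 fold changes of -2.06, -1.03 and -2.55. Gmnc, a regulator of multiciliated cells that the hem and its Cajal-Retzius neurons use, was at 0 to 0.295 CPM in the faces and 11.7 ± 3.82 CPM in forebrain. Wnt3a, the earliest ligand of the hem, was at 1.75 ± 0.676 CPM in face and 19.3 ± 3.6 CPM in forebrain (-3.45, adjusted p = 7.67e-09).

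The 20 genes of neural progenitors were all higher in forebrain, 18 at least 2-fold. The 10 transcription factors among them had a median log2 fold change of -2.23, and the 10 others one of -1.54. Nes, the intermediate filament of these cells, was at 175 to 282 CPM in the faces and at 816, 889, 909 and 815 CPM in the forebrains (-1.89, adjusted p = 1.15e-09). Zic1, a zinc finger factor, was at 63.4 ± 11.8 CPM in face and 306 ± 18.3 CPM in forebrain. Neuronal genes were less one-sided. Of 28, 27 were tested, 16 were higher in forebrain and 3 higher in face (median log2 fold change -0.66). Map2, a microtubule protein of dendrites, was at 62 to 123 CPM in the faces and at 178, 270, 391 and 322 CPM in the forebrains. Tubb3, the tubulin of neurons, overlapped, at 268 to 479 CPM in the faces and at 445, 936, 915 and 783 CPM in the forebrains, and Dcx, a marker of migrating neurons, did so too (54.1 to 108 CPM and 74.7, 134, 233 and 160 CPM). The lowest forebrain was the first homozygous library for all 3. The summed list was at 1246 CPM in that library and at 2488, 2932 and 2312 CPM in the others, against 1416 to 1896 CPM in the faces. The 3 that were higher in face were Nefl, Nefm and Gap43, which belong to neurons with long axons. Nefl, a neurofilament protein, was at 109 to 161 CPM in the faces and at 8.62, 21.4, 22.5 and 10.7 CPM in the forebrains (log2 fold change 3.11, adjusted p = 3.22e-08).

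**Figure D2:**
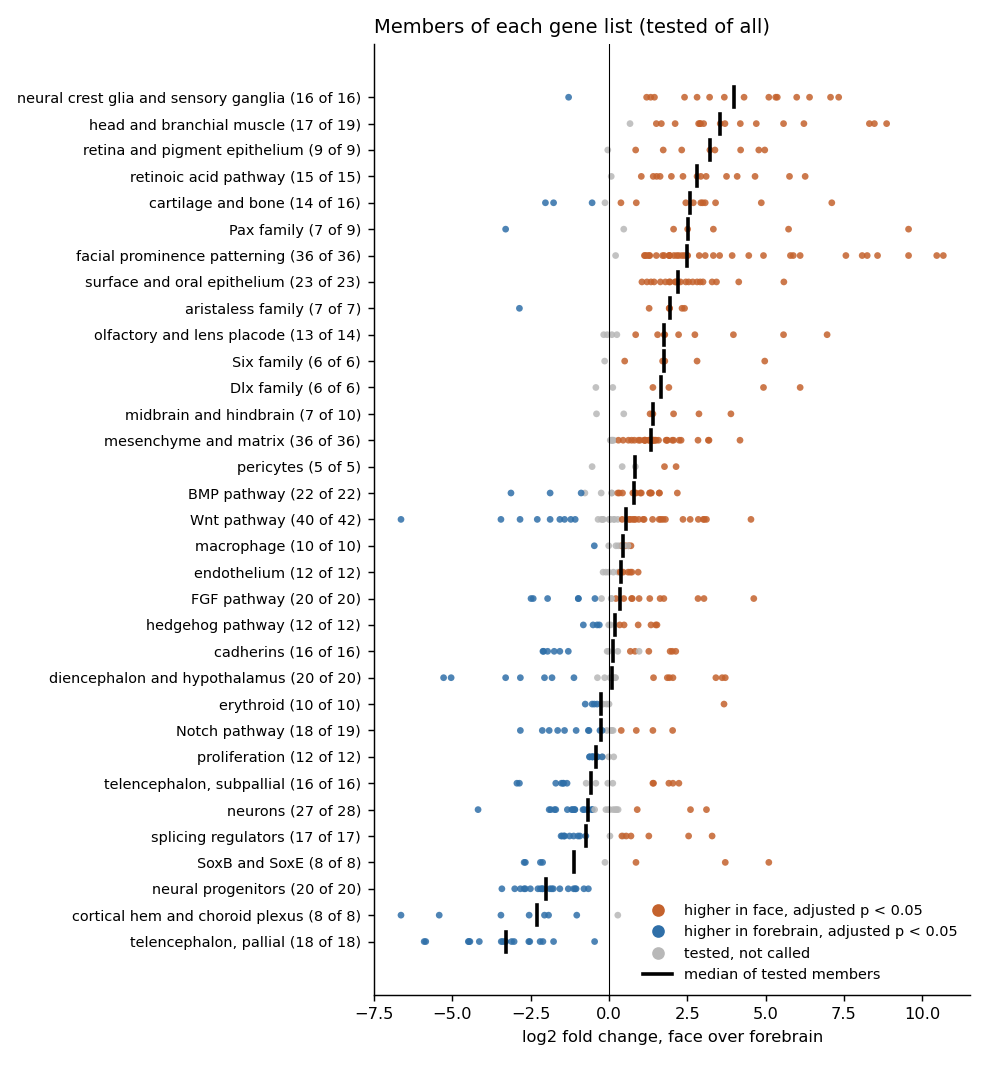
Log2 fold changes of the members of 33 gene lists, face over forebrain (horizontal axis), with the number tested of all members beside each name. Points are genes, coloured by the direction of those with an adjusted p under 0.05, and the black bar is the median of the tested members, from 4.00 for neural crest glia and sensory ganglia to -3.30 for the pallial genes.

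Subpallial genes stood apart from the pallial ones. Of 16, 7 were higher in forebrain and 5 in face, against 27.5% and 26.4% of all genes tested, and the median was -0.57. Those higher in face were Dlx5, Dlx6, Lhx6, Lhx8 and Ebf1, which facial mesenchyme also uses. Lhx8 was at 35.1 to 57.1 CPM in the faces and at 5.43, 20.3, 19.3 and 0.387 CPM in the forebrains (log2 fold change 2.04, SE 0.51, adjusted p = 0.0032). Lhx6 was at 27.8 to 41.5 CPM in the faces and at 5.62, 18.7, 24.2 and 2.06 CPM in the forebrains (1.42, SE 0.41, adjusted p = 0.00873). In each case the first homozygous and the second wild-type forebrain were low, so that the low libraries were of both genotypes. When the faces of only 1 line were compared with the forebrains, neither call was kept, while the log2 fold changes were 1.90 to 2.26 for Lhx8 (adjusted p 0.061 to 0.127) and 1.37 to 1.53 for Lhx6 (adjusted p 0.116 to 0.18).

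The same 2 forebrains were low for the genes of GABAergic neurons. Gad2, which makes GABA, was at 9.14 and 23.6 CPM (homozygous) and at 38.8 and 16.3 CPM (wild-type), and at 2.51 to 13.2 CPM in the faces. Olig2, a factor of ventral progenitors, was at 37.7, 63.3, 63.3 and 23.1 CPM. The summed subpallial list was at 339 and 389 CPM in these forebrains and at 640 and 740 CPM in the others. The pallial list did not divide them in this way, with 2356 and 2631 CPM against 2189 and 2441 CPM. Whether the tissue was cut differently was not tested.

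**Figure D3:**
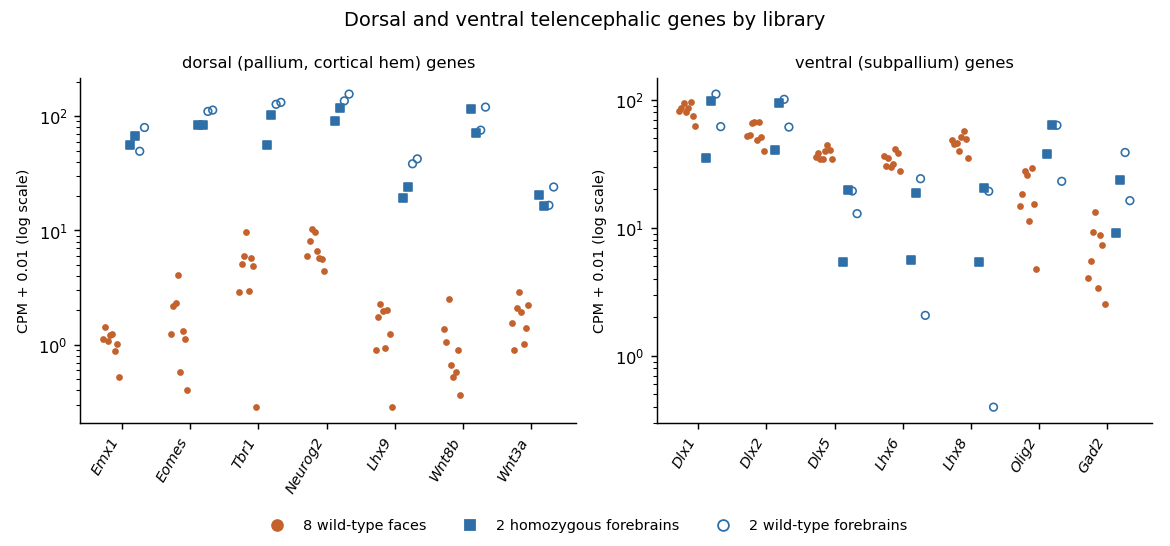
Levels (CPM with 0.01 added, log scale) of 7 dorsal genes and 7 ventral genes of the telencephalon in each library. Filled circles are the 8 wild-type faces, squares the 2 homozygous forebrains and open circles the 2 wild-type forebrains. The forebrains lie above all faces for the dorsal genes, while for Lhx8 they range from 0.387 to 20.3 CPM and lie below all faces.

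Members of a family of related transcription factors did not all differ alike between the tissues. Of the 6 Dlx genes, homeobox genes that act in pairs in the jaw and the ventral forebrain, Dlx3, Dlx4, Dlx5 and Dlx6 were higher in face. Dlx3, a gene of the branchial arches and the epidermis, was at 36.8 to 49.7 CPM in the faces and at 2.09, 1.19, 0.631 and 1.59 CPM in the forebrains (log2 fold change 4.93, adjusted p = 1.12e-10). Dlx5 was at 37.8 ± 3.67 CPM in face and 14.3 ± 6.71 CPM in forebrain (adjusted p = 0.000131). Dlx1 and Dlx2, the neighbouring pair on chromosome 2, did not pass the test. Dlx1 was at 62.6 to 96.4 CPM in the faces and at 35, 98, 111 and 61.8 CPM in the forebrains. Its log2 fold change of 0.12 had a 95% interval of -0.34 to 0.58 and became -0.12 without the first homozygous forebrain. Dlx2 was at -0.42 (adjusted p = 0.0857), and was called higher in forebrain without that library (-0.62, adjusted p = 0.00519), with wild-type forebrains only (-0.55, adjusted p = 0.0291) and with homozygous faces (-0.49, adjusted p = 0.0488).

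In the aristaless family, 6 of 7 genes were higher in face and 1 was higher in forebrain, each at least 2-fold. Alx1, Alx4, Prrx1, Prrx2 and Shox2, which shape the face and limb skeleton, were among those higher in face. Prrx2 was at 95 to 127 CPM in the faces and at 40, 30.9, 21.3 and 21.1 CPM in the forebrains. Shox2 was at 28 to 37.5 CPM in the faces and at 2.33, 6.12, 5.73 and 11.3 CPM in the forebrains.

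In the Pax family the division was as sharp. Pax1, Pax2, Pax3, Pax7 and Pax9 were higher in face and Pax6 higher in forebrain. Pax9, a gene of the pharyngeal endoderm and of tooth and palate mesenchyme, was at 25.2 to 38.5 CPM in the faces and had 3 counts in the 4 forebrains (pooled ratio 884, counting interval 302 to 4290). Pax6, the factor of pallial progenitors and of the eye, was at 9.86 to 20.9 CPM in the faces and at 166, 135, 159 and 189 CPM in the forebrains (log2 fold change -3.30, adjusted p = 8.18e-11). Pax8 did not pass the test (0.471 ± 0.325 and 0.35 ± 0.376 CPM), and 2 further members had too few counts to be tested.

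In the family of the sine oculis genes, Six2, Six4, Six5 and Six6 were higher in face. Six2, a gene of frontonasal and periocular mesenchyme, was at 190 to 233 CPM in the faces and at 67.7, 90.4, 60.6 and 51.4 CPM in the forebrains. Six3, which both the eye field and the anterior forebrain need, was at 25.4 ± 5.44 CPM in face and 28 ± 5.2 CPM in forebrain and did not pass the test (log2 fold change -0.14, 95% interval -0.49 to 0.22). With the B6 faces only it was called higher in forebrain (-0.63, adjusted p = 0.0479). Sox1, Sox2, Sox3 and Sox21, SoxB genes of neural progenitors, were higher in forebrain with log2 fold changes of -2.19, -2.12, -2.71 and -2.67. The SoxB gene Sox14 was higher in face, as were the SoxE genes Sox8 and Sox10.

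**Figure D4:**
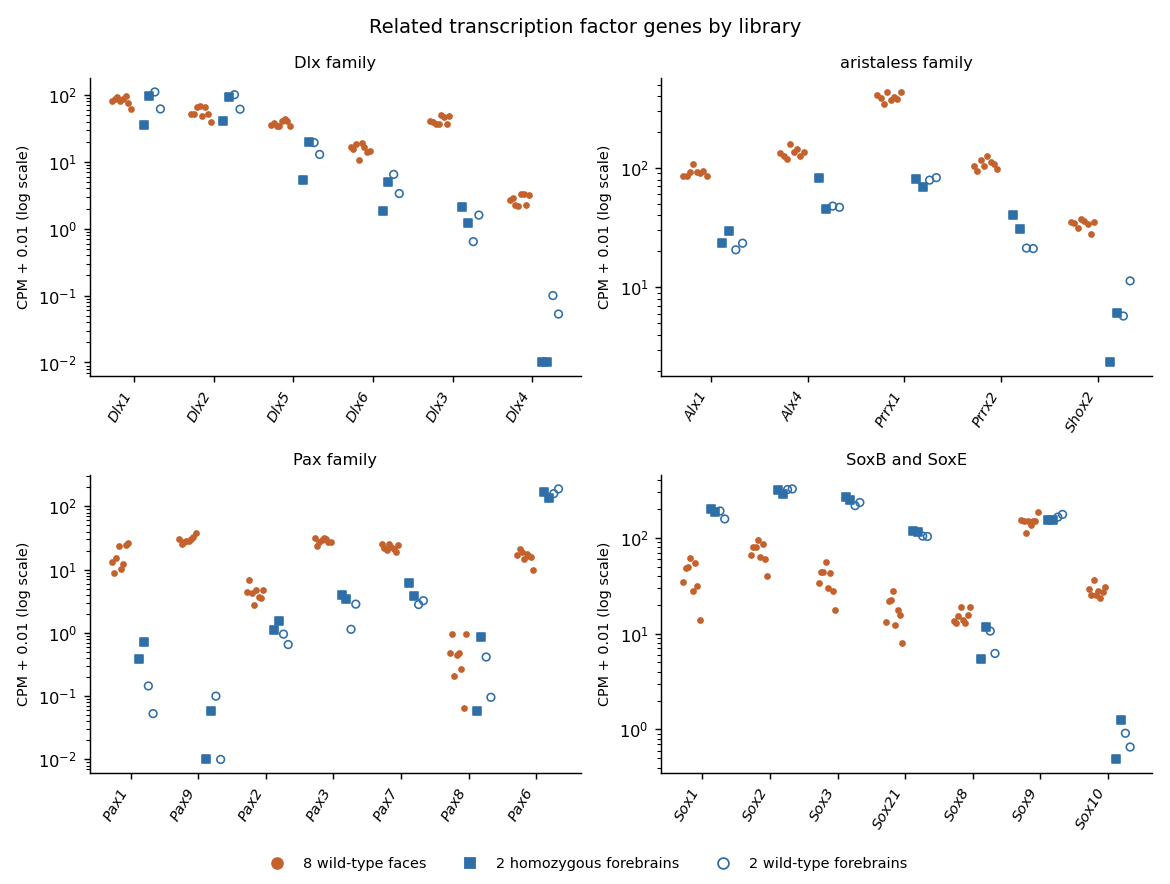
Levels (CPM with 0.01 added, log scale) in each library of genes of the Dlx, aristaless, Pax and SoxB and SoxE families. Filled circles are the 8 wild-type faces, squares the 2 homozygous forebrains and open circles the 2 wild-type forebrains. Pax6 lies at 135 to 189 CPM in the forebrains and at no more than 20.9 CPM in any face.

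Most signalling pathways held genes of both directions, but the retinoic acid pathway did not. Of its 15 genes, 14 were higher in face, all at least 2-fold, and none was higher in forebrain (median log2 fold change 2.81). Its 8 genes of synthesis and breakdown had a median of 3.92. Aldh1a2, which makes retinoic acid in mesenchyme, was at 21.8 to 59.8 CPM in the faces and at 0.0476, 1.72, 0.722 and 0.473 CPM in the forebrains (log2 fold change 5.76, adjusted p = 5.06e-08). Aldh1a3, which makes it in the nasal and eye epithelium, was at 32.4 ± 3.37 CPM against 1.89 ± 0.666 CPM, and Aldh1a1, a gene of the dorsal retina, at 30.4 ± 7.72 against 1.19 ± 0.355 CPM. Cyp26b1, which degrades retinoic acid, was higher in face too (3.75, adjusted p = 1.09e-09). Of the receptors, Rarg was at 165 to 211 CPM in the faces and at 35.8, 25.7, 22.6 and 22.1 CPM in the forebrains.

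Of 42 Wnt pathway genes, 40 were tested, 21 were higher in face and 9 in forebrain, against 26.4% and 27.5% of all genes tested. The ligands were split 8 to 5. Wnt5a, which drives outgrowth of the prominences, was at 123 to 192 CPM in the faces and at 28, 19.6, 26.3 and 25.5 CPM in the forebrains (log2 fold change 2.59, adjusted p = 8.88e-10). Wnt7b and Wnt7a, ligands of the neuroepithelium, were higher in forebrain (-2.29, adjusted p = 1.08e-09, and -2.84, adjusted p = 5.68e-08), as was the Wnt inhibitor Sfrp1 (-1.22, adjusted p = 6.88e-08).

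Of 20 FGF pathway genes, 11 were higher in face and 6 in forebrain, against 26.4% and 27.5% of all genes tested. Fgf10, a mesenchymal ligand, was at 11.5 to 14.4 CPM in the faces and at no more than 0.812 CPM in the forebrains. Fgf17, a ligand of the anterior midline of the telencephalon, was at 1.77 to 13.9 CPM against 38.2, 62.1, 35.4 and 22.6 CPM. Fgfr3, a receptor of pallial progenitors, was higher in forebrain (-2.49, adjusted p = 1.57e-09).

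In the BMP pathway, 15 of 22 genes were higher in face and 3 in forebrain, against 26.4% and 27.5% of all genes tested. Bmp4, which patterns the distal face and the dorsal midline of the brain, was at 29.6 to 40.3 CPM in the faces and at 20.9, 12, 11.3 and 14.9 CPM in the forebrains. The response genes Id1 and Id4 went in opposite directions, with log2 fold changes of 1.61 (adjusted p = 8.5e-09) and -3.13 (adjusted p = 7.13e-10). Id4 was at 17.7 to 41.6 CPM in the faces and at 284, 270, 251 and 267 CPM in the forebrains.

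In the hedgehog pathway 6 of 12 genes were higher in face and 4 in forebrain, against 26.4% and 27.5% of all genes tested. The ligand Shh was at 15.9 to 31.9 CPM in the faces and at 6.09, 14, 14.7 and 3.31 CPM in the forebrains (log2 fold change 1.34, adjusted p = 0.0022). It was not called with the B6 faces only (0.80, adjusted p = 0.229) or the B7 faces only (1.29, adjusted p = 0.0651). Its lowest forebrains were those low for the subpallial genes. The target Gli1 was higher in face (1.53, adjusted p = 9.7e-08), and Gli3, whose product represses the pathway, higher in forebrain (-0.82, adjusted p = 0.000119).

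Notch genes leaned to the forebrain, with 10 of 19 (18 tested) higher there and 4 higher in face. The shares over all genes tested were 27.5% and 26.4%. Dll1, a ligand of newborn neurons, was at 10.7 to 21.8 CPM in the faces and at 116, 104, 131 and 122 CPM in the forebrains (-2.83, adjusted p = 2.71e-10). Hes5, the main target in progenitors, was lower in face as well (-2.13, adjusted p = 1.19e-05). Hey2, a target in vessels and mesenchyme, was higher in face (2.03, adjusted p = 2.66e-05).

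Among genes that change with cell state, cadherins were split 6 to 6 of 16. Of all genes tested, 26.4% were higher in face and 27.5% in forebrain. Cdh2, the cadherin of neuroepithelium, was at 164 to 220 CPM in the faces and at 460, 385, 466 and 495 CPM in the forebrains, and Cdh1, the cadherin of epithelia, at 35.3 to 56.6 CPM against 12.9, 9.51, 4.6 and 11.3 CPM. Most splicing regulators differed by class, but not all. Of 11 neural regulators, 8 were higher in forebrain and 1 in face. Of 6 non-neural regulators, 5 were higher in face and 1 in forebrain. Esrp1, an epithelial regulator, was higher in face (log2 fold change 3.29, adjusted p = 4.67e-08), and Ptbp2, a neural regulator, higher in forebrain (-0.93, adjusted p = 5.85e-08). Rest, which silences neuronal genes in cells that are not neurons, was at 105 to 182 CPM in the faces and at 61.1, 48, 56.3 and 59.5 CPM in the forebrains. Of 12 proliferation genes, 9 were higher in forebrain, none at least 2-fold, and Pcna, the clamp of DNA polymerase, differed by -0.62 (adjusted p = 2.17e-06).

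Vessels and blood cells are found in both tissues. The counts below stand against 26.4% of all genes tested higher in face and 27.5% higher in forebrain. Of 12 endothelial genes, 7 were higher in face, none at least 2-fold, with a median of 0.37, and of 10 macrophage genes 4 were higher in face and 1 in forebrain (median 0.43). Of 5 pericyte genes, 2 were higher in face, both at least 2-fold, and none in forebrain. They were the signalling regulator Rgs5 (log2 fold change 1.77), which overlapped between the tissues, and the proteoglycan Cspg4 (2.14). Of 10 erythroid genes, 4 were higher in forebrain and 1, Hba-a2, in face. Hba-a2, an alpha globin gene, was at 240 to 541 CPM in the faces and at 66.2, 20.3, 24.3 and 14.8 CPM in the forebrains, but it is nearly identical to its neighbour Hba-a1, and the authors' estimate may divide reads between them. Of 8 reference genes, 1 was higher in face and 4 in forebrain, none at least 2-fold. Gapdh did not pass the test (log2 fold change -0.12, adjusted p = 0.336), while Actb was higher in face (0.50) and Hprt higher in forebrain (-0.50).

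Next to the B8 deletion, which the 2 homozygous forebrains carry, lie the Dmrt genes, which code for zinc finger factors. Within 1 Mb on either side 10 genes were tested, of which 6 were higher in face and 2 in forebrain. Over all genes tested, 26.4% and 27.5% were called in these directions, and the count was not tested against them. Dmrt3, which ends 2.41 kb from the deletion and belongs to the medial pallium, was at 2.64 to 5.88 CPM in the faces. It was at 48 and 38.1 CPM in the homozygous forebrains and at 38.3 and 52.5 CPM in the wild-type forebrains (log2 fold change -3.44, adjusted p = 3.2e-10). Dmrt2, which starts 34.7 kb beyond the other end of the deletion and is a gene of the somites, went the other way. It was at 4.25 to 9.22 CPM in the faces and at 0.571, 0.0956, 0.225 and 0.043 CPM in the forebrains (4.79, adjusted p = 9.7e-08). For both genes the homozygous and the wild-type forebrains lay on the same side of every face. Dmrt1, a testis gene 22 kb away, was at 0.235 to 0.727 CPM in the faces, at 0.0476 and 0.812 CPM in the homozygous forebrains and at 0.541 and 1.59 CPM in the wild-type ones. It did not pass the test (-0.82, adjusted p = 0.18), but it was called higher in forebrain without the first homozygous library (-1.21, adjusted p = 0.0166) and with wild-type forebrains only (-1.33, adjusted p = 0.0251). Further out, Smarca2, an ATPase of chromatin remodelling, and Pgm5 were higher in face (0.87 and 2.66).

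Some of the genes furthest toward the forebrain were not genes of the embryonic brain. Among the 15 that lead in this direction were Krt12, Crybb2, Gnat1 and Alb, which belong to the cornea, the lens, the rod photoreceptor and the liver. Gnat1, the transducin subunit of rods, was at 0 to 0.236 CPM in the faces and at 15.6, 17.4, 10.7 and 17.5 CPM in the forebrains (log2 fold change -7.28, adjusted p = 1.3e-10). Krt12, a keratin of the corneal epithelium, had 1 count in the 8 faces and stood at 11, 10.9, 9.61 and 15.1 CPM in the forebrains, with a pooled ratio of 2020 and a counting interval of 362 to 79800. Alb, serum albumin, was at 22.6, 13.1, 16.7 and 15.5 CPM in the forebrains and at 0 to 1.31 CPM in the faces.

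Lists of such genes were then drawn up with these values in view, so that they describe and carry no test. Of 17 rod genes, 16 were tested and all 16 were higher in forebrain. Their summed level was 108, 111, 70.3 and 121 CPM in the forebrains and 0.637 to 1.3 CPM in the faces. The 17 liver genes were all higher in forebrain and summed to 50.1, 39.7, 48.7 and 38.9 CPM against 0.168 to 3.52 CPM. The 4 genes of lens and cornea summed to 37.2, 38.9, 26.6 and 46.5 CPM against 0.0941 to 0.559 CPM. Of 6 fast muscle genes, 5 were tested and only 2 were higher in forebrain, with sums of 8.66, 17.3, 15.6 and 24.2 CPM against 4.73 to 8.04 CPM. Myh4, a myosin of adult fast muscle and 1 of the 2, was at 3.24, 7.21, 8.07 and 12.1 CPM against at most 0.196 CPM. Aldh3a1, a crystallin of the cornea, and Pde6b, a phosphodiesterase of rods, had no count in any face, and were at least 449-fold and 224-fold higher in forebrain against a floor of 3 counts over the 8 faces. The 8 homozygous faces of the same lines were about as low as the wild-type faces. They were at 0.587 to 1.59 CPM for the rod genes and 0.0493 to 0.993 CPM for the liver genes. For the homozygous faces, CPM were scaled to library totals without TMM adjustment. Rax and Six6, genes of the embryonic eye, were lower in forebrain than in any face. The source of these transcripts was not tested, and because they were in all 4 forebrains no library could be left out to remove them. Of the 926 genes at least 2-fold higher in forebrain, 51 had a mean under 0.1 CPM in face, and 639 had a mean of 1 CPM or more.

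Structural RNAs moved the other way. All 5 on a list chosen with their values in view (Gm42418, Gm26917, Rn7sk, Rn7s1 and Rn7s2) were higher in face. Gm42418, a locus that takes up ribosomal RNA reads, was at 2792 to 15890 CPM in the faces (median 6575) and at 208, 449, 267 and 301 CPM in the forebrains. Rn7sk, a non-coding RNA that is not polyadenylated, was at 5.77 to 37.4 CPM against 0.619, 1.1, 1.08 and 1.25 CPM. The summed list was at 3131 to 16474 CPM in the faces and at 255, 525, 305 and 356 CPM in the forebrains, so that every face lay above every forebrain. These reads are part of the library totals to which the CPM refer, and TMM scaling factors were 0.974 to 1.04. What part RNA selection had in these differences was not tested.

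The imprinted growth genes H19 and Igf2, neighbours on chromosome 7 that share enhancers, were also higher in face. H19, a non-coding RNA, was at 3064 to 4809 CPM in the faces and at 863, 717, 713 and 701 CPM in the forebrains (log2 fold change 2.43, adjusted p = 4.89e-10). Igf2, a growth factor of embryonic mesenchyme, was at 2037 to 3014 CPM and at 555, 358, 503 and 460 CPM (2.39, adjusted p = 9.14e-10).

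**Figure D5:**
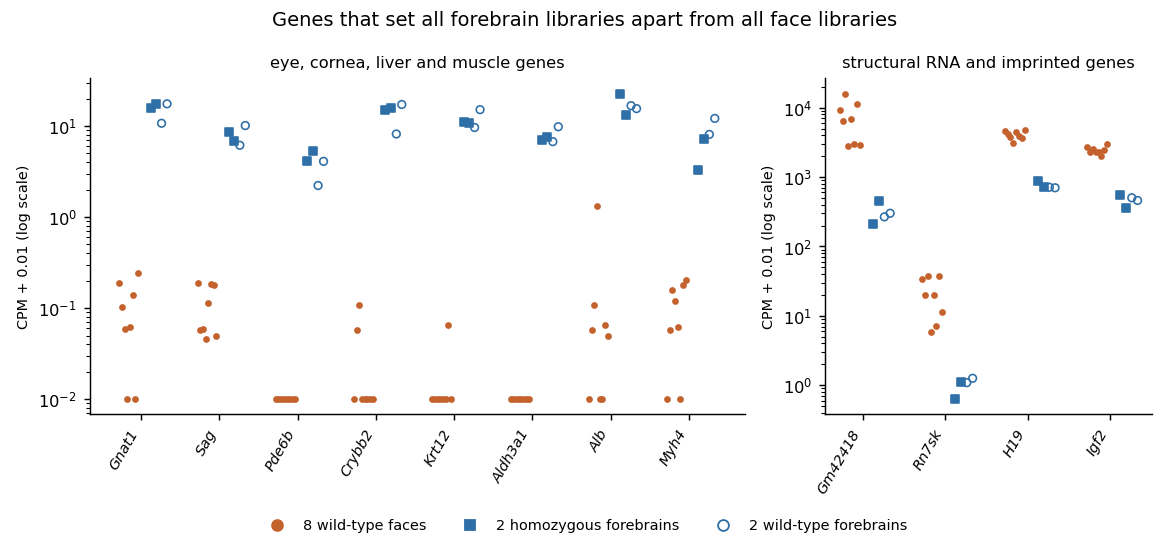
Levels (CPM with 0.01 added, log scale) in each library of 8 genes of the eye, cornea, liver and muscle, and of 2 structural RNA and 2 imprinted genes. Filled circles are the 8 wild-type faces, squares the 2 homozygous forebrains and open circles the 2 wild-type forebrains. Gnat1 lies at 10.7 to 17.5 CPM in the forebrains and at no more than 0.236 CPM in any face.

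To see what the genes on either side share beyond their levels, their lengths and promoters were described. Protein-coding genes at least 2-fold higher in forebrain spanned a median of 34.8 kb, those at least 2-fold higher in face 22.2 kb and all those tested 25 kb. Promoters (250 bases before to 50 after the start of a gene, RefSeq, GRCm38.p6) were matched by symbol for 653 of the 926, 1089 of the 1679 and 11480 of the 15495 genes. The median ratio of observed to expected CpG was 0.534 for the genes of the face, 0.636 for those of the forebrain and 0.751 for all tested. The letters TAATTA, a core that many homeodomain proteins bind and that reads the same on both strands, were in 5.05% of the forebrain promoters, 2.57% of the face promoters and 2.37% of all tested. In all 27025 promoters of the table the share was 5.31%. A match is no evidence of binding.

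The promoters of Hand2 and Prrx1, which were higher in face, and of Wnt8b and Tbr1, which were higher in forebrain, are shown because each holds the letters, printed in capitals. Hand2 (chr8:57320733-57321032, plus strand) and Prrx1 (chr1:163313601-163313900, minus strand) hold them once. Wnt8b (chr19:44493222-44493521, plus strand) holds them once, nearer to the start of the gene. Tbr1 (chr2:61804203-61804502, plus strand) holds them at 2 places.
Hand2: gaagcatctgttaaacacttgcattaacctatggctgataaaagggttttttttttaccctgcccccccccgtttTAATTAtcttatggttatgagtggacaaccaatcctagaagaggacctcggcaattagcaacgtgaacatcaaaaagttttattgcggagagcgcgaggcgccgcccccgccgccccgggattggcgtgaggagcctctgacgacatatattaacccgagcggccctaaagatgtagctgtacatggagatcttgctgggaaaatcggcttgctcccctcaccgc
Prrx1: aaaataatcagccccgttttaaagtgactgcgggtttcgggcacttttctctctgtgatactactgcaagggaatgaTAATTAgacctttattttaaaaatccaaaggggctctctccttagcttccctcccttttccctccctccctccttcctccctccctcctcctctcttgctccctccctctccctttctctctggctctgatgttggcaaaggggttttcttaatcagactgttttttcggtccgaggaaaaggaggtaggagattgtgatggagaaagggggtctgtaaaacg
Wnt8b: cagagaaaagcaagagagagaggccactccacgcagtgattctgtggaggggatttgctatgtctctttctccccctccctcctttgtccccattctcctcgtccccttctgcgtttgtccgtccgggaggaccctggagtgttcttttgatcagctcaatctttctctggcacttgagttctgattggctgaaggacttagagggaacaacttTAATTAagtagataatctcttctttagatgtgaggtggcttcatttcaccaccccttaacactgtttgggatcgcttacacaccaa
Tbr1: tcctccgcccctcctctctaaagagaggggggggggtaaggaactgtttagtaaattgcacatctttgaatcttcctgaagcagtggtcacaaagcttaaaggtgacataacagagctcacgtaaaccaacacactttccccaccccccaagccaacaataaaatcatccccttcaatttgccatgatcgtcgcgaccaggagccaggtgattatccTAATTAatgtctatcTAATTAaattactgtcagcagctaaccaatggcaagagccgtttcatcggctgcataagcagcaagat

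The wild-type faces themselves were tested for differences between the 4 lines, to see how far line alone separates samples of a tissue. Of 15661 genes tested, 1 was called (0.00639%), and 1369 had an unadjusted p under 0.05. DESeq2's likelihood-ratio test, on the same 15661 genes, called 263. The gene called was Gm11808, at 82.8 and 112 CPM in the B5 faces, 11.4 to 18 CPM in the other 6 faces and 24.1 to 45.5 CPM in the forebrains. B8 has no wild-type face among the samples, so that what line B8 adds to the difference from the forebrain cannot be told apart from tissue.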

How the data were processed

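RNA-seq of face and forebrain at embryonic day 11.5 was analysed from the deposited expected counts, which the authors estimated per Ensembl gene (Gencode annotation, mm10) with RSEM after alignment with STAR. Whether counting used strand is not given in the sources used here, so that overlapping genes on opposite strands may share reads. The deposited TPM and FPKM columns were not used. Expected counts of the 8 wild-type faces and 4 forebrains were rounded and kept where filterByExpr found enough reads (minimum count 10). TMM factors and a quasi-likelihood F-test came from edgeR 4.0.16 (R 4.3.3, limma 3.58.1). Face was set against forebrain with Benjamini-Hochberg adjustment over all 15495 genes and a threshold of 0.05. A second call added a difference of at least 2-fold. CPM used the scaled library sizes, except for the sums given for homozygous faces, which used library totals without TMM adjustment. Standard errors were derived from the log2 fold change and the F statistic of the same fit, and 95% intervals from them with a t quantile. Both are approximate.

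Where a group had no count, a fold is a bound against a floor of 3 counts over the group, and with 1 to 3 counts the ratio of pooled levels has an exact interval. Both cover counting error only. On simulated data with 200 changed genes among the 15495 of this comparison, edgeR recovered 76% of those changed by 1 and 98% of those changed by 2 on the log2 scale. Of its 184 calls there, 10 were false. The comparison itself called 8349 genes, a setting that the simulation does not cover. Replicates of a group were checked for identical values, and none were found.

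Members and gene lists were chosen with earlier results of these data known, and the lists of rod, cornea and lens, liver, fast muscle, structural RNA and imprinted genes, and the microRNA hosts, after these values were seen. Named genes were the 15 protein-coding genes with the largest difference in each direction among called genes with a mean of at least 10 CPM in the higher tissue and no overlap, up to 4 called members with the highest levels per list and role, called members opposite to most of their list, the members of the transcription factor families, the tested genes within 1 Mb of the B8 deletion and the reference genes. Msx2, Myh4, Aldh3a1, Pde6b, H19, Igf2, Gm11808, the microRNA hosts, the structural RNAs and some members named in counts of a list fell outside this rule and were chosen after their values were seen. Alternatives were other scaling, no filter, DESeq2 1.42.0, a test against a 2-fold threshold (glmTreat), wild-type forebrains only, homozygous faces, face line in the model, faces of 1 line at a time and each library left out. Some genes are not reported here.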

Additional observations from a re-analysis of the deposited data

Results flagged for a closer look

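Of 354 groups of libraries (177 genes in faces and in forebrains), 21 had a highest or lowest library that stood apart from the others of its tissue by Dixon's test at the 95% level. Chance alone would flag about 1 in 20 groups. The flags were spread over 10 face groups and 11 forebrain groups, and 7 of the 11 were the first homozygous forebrain.

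In that library the mesenchymal genes Alx4 (83.1 CPM, others 45.3 to 47.9), Msx1 (137 CPM, others 69.5 to 80.9) and Col9a1 (33.8 CPM, others 11 to 14.8) were high, as were H19 (863 CPM, others 701 to 717), Wnt7b (315 CPM, others 278 to 280) and Myod1 (0.143 CPM, others 0), while Neurog1 was low (24.7 CPM, others 27.5). Without it, Alx4 and Msx1 remained higher in face. The second homozygous forebrain was high for Gm13648 (0.143 CPM, others 0). The first wild-type forebrain was low for Trp63 (2.07 CPM, others 5.89 to 6.52). The second was low for Hand2 (0 CPM, others 0.0451 to 0.0478) and high for Oc90 (0.043 CPM, others 0). The flags for Myod1, Gm13648, Hand2 and Oc90 rested on at most 3 counts over the forebrains. Where all other libraries are at 0, as for Myod1, Gm13648 and Oc90, the test flags any count.

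Among the faces, the second B5 face was high for Alx1 (107 CPM, others 85.9 to 93.5), Map2 (123 CPM, others 62 to 86.9), Cdh2 (220 CPM, others 164 to 189), Dmrta1 (4.43 CPM, others 1.38 to 2.68) and Alb (1.31 CPM, others 0 to 0.098). The first B5 face was high for Wnt8b (2.5 CPM, others 0.354 to 1.36). The second B6 face was low for Rax (5.3 CPM, others 8.97 to 12.2) and Msx2 (25.3 CPM, others 28.5 to 31.1). The first was high for Krt12 (0.0559 CPM, others 0), a flag that rested on 1 count. The first B7 face was high for Olig3 (1.24 CPM, others 0.049 to 0.355).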

How the results depend on the processing

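The counts of genes higher in face and in forebrain moved by over 1.5 times only where faces of a single line were compared with the forebrains, a comparison with fewer samples. They were 2352 and 2247 with the B3 faces, 2198 and 1873 with the B5 faces and 2542 and 2420 with the B7 faces, and with the B6 faces the forebrain count was 2647. A test against a 2-fold threshold called 998 genes higher in face and 512 higher in forebrain. Leaving out each library in turn gave 3670 to 4147 genes higher in face, 3782 to 4238 higher in forebrain, 1617 to 1768 at least 2-fold higher in face and 878 to 1035 at least 2-fold higher in forebrain. Between the face lines 1 to 5 genes were called with a library left out, 1081 of 22538 with no filter on low counts and 263 by DESeq2. Over 23 other fits, 96 of 4034 values of 176 genes examined changed sign or call, in 46 genes: 78 lost the call, 10 gained it and 8 changed sign. Of the 78, 39 came from the test against a 2-fold threshold. It asks a stricter question, which a gene with a difference under 2-fold was bound to fail. With the faces of at least 1 single line, the call was lost for Cdh5, Col2a1, Col3a1, Cryaa, Dcx, Gad1, Gad2, Gli3, Lhx6, Lhx8, Olig2, Ptch1, Rgs5, Shh, Sox5, Sox8 and Tubb3. The changes of sign were in genes not called. Dlx1 was at -0.06 with wild-type forebrains only, -0.16 with the B6 faces and -0.12 to 0.35 with a library left out. Six3 was at 0.02 with wild-type forebrains only, 0.08 with the B5 faces and 0.01 with the B7 faces. With the B6 faces it gained a call in the direction of the forebrain (-0.63, adjusted p = 0.0479). Gapdh was at 0.07 with the B7 faces and Sox9 at 0.05 with the B6 faces. Sox9 gained a call in the direction of the forebrain with homozygous faces (-0.26, adjusted p = 0.0405). The causes were not tested. No paired analysis was possible because the faces and forebrains come from different lines and share no replicate numbers that pair them.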
